A study of Mus musculus with 9 samples.

Results

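The EGR, KLF and IER immediate-early genes are transcription factors and small regulatory proteins whose RNA rises early after a cell is stimulated. The 10 members were taken by name (Egr1, Egr2, Egr3, Ier2, Ier3, Ier5, Klf2, Klf4, Klf6 and Klf10) from the 24061 gene symbols of a count table, and the rows of a symbol were summed. RNA-seq was done on bone-marrow-derived macrophages (BMDMs) of female C57BL/6J mice, grown with L-cell conditioned medium and kept without serum before treatment. There were 3 groups of 3 libraries. Veh cells received DMSO alone. LPS cells received DMSO and then 10 ng/mL lipopolysaccharide (LPS), a bacterial agonist of Toll-like receptor 4, for 2 hr. T0+LPS cells received 500 nM T0901317 (T0), an agonist of the liver X receptor (LXR), for 3 hr, and the same LPS was then added to the T0-containing medium for 2 hr. When Veh cells were harvested is not stated, so culture time and LPS cannot be told apart in comparisons with Veh. Total counts per library lay between 13299044 and 16467983.

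Immediate-early promoters respond to kinase cascades, serum response factor and NF-κB without a need for new protein. EGR and KLF proteins are zinc finger factors that bind GC-rich or CACCC sequences, while Ier2 and Ier5 encode related proteins and Ier3 an unrelated one. In macrophages these genes are known as early targets of Toll-like receptors, and several KLF factors are known for restraining or promoting inflammatory gene expression.

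Levels are given as CPM, counts scaled to library size with TMM factors, which correct for composition. A gene was called when edgeR gave an adjusted p under 0.05, with Benjamini-Hochberg adjustment over all symbols tested. The study describes its replicates as biological, each a macrophage culture differentiated on its own, so p-values measure the spread between such cultures. Between libraries of a group, chi-square divided by its degrees of freedom ran from 2.75 to 7.18, above the value near 1 of sampling alone. In bulk RNA, fewer cells that express a gene and less RNA per cell cannot be told apart. The cells had macrophage RNA, with Csf1r at 3665 CPM in Veh, 4369 CPM in LPS and 4472 CPM in T0+LPS. Macrophage markers did not all move alike, since Mertk was at 61.0, 34.8 and 72.8 CPM and Fcgr1 at 127, 70.8 and 88.9 CPM in these groups. Cd14, in the same order, was at 944, 3128 and 3352 CPM, higher in both LPS-treated groups than in Veh.

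Of the 10 members, 9 had reads and were tested in every comparison. Egr3, a close relative of Egr1 and Egr2 at chr14:70077445-70082613 of mm10, has 3 rows with 134 bases that are not shared between them, and reads on shared bases are absent from these counts. It had 0 reads in all 9 libraries. A limit of 3 counts per library would allow from 1.20 to 1.77 CPM per kilobase of counted sequence, which lies above the Egr1 mean of 0.882 CPM per kilobase in Veh, so the level of Egr3 was not detectable at this depth. For 8 members every exon base was counted. Klf10 was measured on 2430 bases of 2 rows, almost all of its reads on the longer row (1900 against 2). The row with 2 reads holds 761 of these bases. CPM per kilobase of Klf10 is therefore lower than on the 1669 bases of the longer row alone.

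Promoters were taken from RefSeq (GRCm38.p6) as the 250 bases before the transcription start, and 6 of the 10 members had an entry at the start of their row. Egr1, Egr3, Ier2 and Klf10 were not matched. Both strands were searched for CArG boxes, MEF2 motifs, a 10-letter kappaB motif and a second kappaB motif, GGAANTTCC. The search also covered the CRE TGACGTCA, which contains its shorter form TGACG, and the AP-1 motif TGANTCA. The EGR motif GCGNGGGCG can overlap the GC box. KLF motifs, TATA boxes, nuclear receptor sites and the LXR element DR4, a pair of such sites, completed the list. Capitals below mark matches to these motifs except GC boxes, KLF motifs and single nuclear receptor sites. The promoters of Ier3, Klf6, Klf2, Klf4 and Egr2 are shown, chosen after their values were seen. Each is written along the strand of its gene.
Ier3, chr17:35821463-35821712, plus strand: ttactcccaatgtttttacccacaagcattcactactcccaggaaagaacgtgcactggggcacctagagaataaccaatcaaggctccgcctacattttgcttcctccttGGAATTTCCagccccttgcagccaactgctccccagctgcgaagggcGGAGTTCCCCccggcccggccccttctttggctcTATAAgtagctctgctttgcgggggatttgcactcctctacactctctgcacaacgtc
Klf6, chr13:5861239-5861488, plus strand: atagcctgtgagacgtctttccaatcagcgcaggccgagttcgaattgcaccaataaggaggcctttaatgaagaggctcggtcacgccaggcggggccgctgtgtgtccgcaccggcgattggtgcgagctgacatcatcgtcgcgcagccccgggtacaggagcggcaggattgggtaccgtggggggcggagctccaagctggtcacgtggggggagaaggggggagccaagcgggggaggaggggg
Klf2, chr8:72318812-72319061, plus strand: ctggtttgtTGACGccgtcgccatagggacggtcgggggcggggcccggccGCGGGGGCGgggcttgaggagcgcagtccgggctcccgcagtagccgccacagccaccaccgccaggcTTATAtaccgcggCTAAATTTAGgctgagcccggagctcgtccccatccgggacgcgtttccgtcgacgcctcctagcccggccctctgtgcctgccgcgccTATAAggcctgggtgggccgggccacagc
Klf4, chr4:55532476-55532725, minus strand: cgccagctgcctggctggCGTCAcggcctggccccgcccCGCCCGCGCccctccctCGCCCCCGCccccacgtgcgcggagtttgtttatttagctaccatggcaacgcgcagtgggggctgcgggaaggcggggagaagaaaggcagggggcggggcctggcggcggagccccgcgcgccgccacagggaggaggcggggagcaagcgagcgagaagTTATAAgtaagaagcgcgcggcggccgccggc
Egr2, chr10:67537619-67537868, plus strand: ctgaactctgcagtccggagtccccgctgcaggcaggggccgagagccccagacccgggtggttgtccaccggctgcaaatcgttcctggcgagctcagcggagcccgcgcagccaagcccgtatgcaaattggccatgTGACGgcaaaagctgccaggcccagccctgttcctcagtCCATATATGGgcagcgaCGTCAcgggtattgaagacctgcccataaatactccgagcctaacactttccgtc

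The Ier3 window held GGAANTTCC from 139 to 131 bases upstream and the 10-letter kappaB motif from 92 to 83 bases upstream, motifs found in 0.811% and 3.90% of 32817 promoters. The Klf2 window held a MEF2 motif from 118 to 109 bases upstream (2.92% of promoters). GCGNGGGCG (4.70% of promoters) matched in Klf2 and at 2 places in Klf4. A CArG box (1.47% of promoters) was found in Egr2 from 72 to 63 bases upstream, with TGACG (17.7% of promoters) on either side. TGACG was also found in Klf2 and Klf4. The TATA box TATAA, in 22.8% of promoters, was found in Ier3, Ier5, Klf2 and Klf4. In Klf4, matches on the 2 strands overlap. The GC box GGGCGG, in 32.7% of promoters, was found in Ier3, Ier5, Klf2, Klf4 and Klf6, and the KLF motif CACCC, in 52.0%, in Egr2 and Klf2. None of the 6 windows held the CRE (1.55% of promoters), the AP-1 motif (6.75%), the nuclear receptor site AGGTCA (14.0%) or the DR4 (0.0152%). A match describes letters only.

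Per length of counted sequence, the members spanned a wide range in resting cells. Klf6 was highest in Veh, at 146 ± 0.690 CPM per kilobase (SD, n = 3), followed by Ier5 at 94.5 ± 0.771 and Egr2 at 69.1 ± 0.406. Ier2 (23.9 ± 2.07) and Klf2 (23.1 ± 1.05) came next, and their libraries overlapped. Klf10 (7.61), Klf4 (4.71), Ier3 (3.53) and Egr1 (0.882) followed, each apart from its neighbours. In LPS the order of CPM per kilobase was Klf6 (351), Ier5 (116), Egr2 (72.1), Ier2 (48.8), Ier3 (27.9), Klf2 (26.6), Klf10 (5.23), Egr1 (1.39) and Klf4 (1.39), with overlapping libraries for Ier3 and Klf2 and for Egr1 and Klf4. Ier3 had thus passed Klf2, Klf10 and Klf4 in mean level, and Klf4 had dropped to the level of Egr1. The order of T0+LPS means was that of LPS except that Klf4 (1.26 CPM per kilobase) stood above Egr1 (1.03), again with overlapping libraries.

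**Figure D1:**
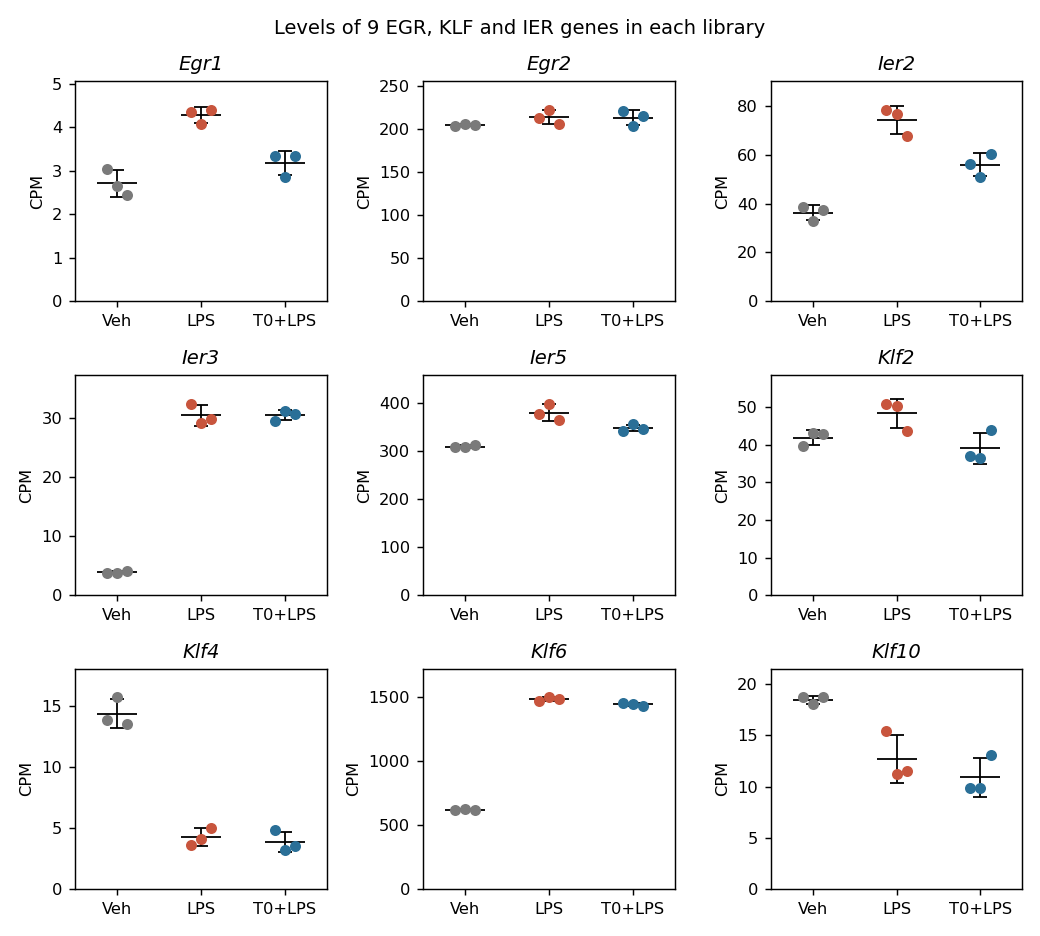
CPM of the 9 members with reads in each library of Veh, LPS and T0+LPS, on linear axes that start at 0. Points are libraries, and bars are the mean and SD of 3. Ier3 and Klf6 were high in both LPS-treated groups, Klf4 and Klf10 were low in both, and Ier2 in T0+LPS lay between Veh and LPS.

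The comparison of LPS with Veh asks how 2 hr of LPS moved the members without the LXR agonist. Ier3, Klf6 and Ier2 rose most, Egr1, Ier5 and Klf2 rose less (Klf2 turned negative with library totals), Klf4 and Klf10 fell, and Egr2 was not called. Of the 9 members tested, 6 were called higher and 2 lower. Over the 9559 symbols tested, 32.9% were called higher and 31.2% lower. The LPS and Veh libraries did not overlap for 8 of the 9 members, against 67.3% of all symbols. The median log2 fold change was 0.30 over the members and -0.00 over all symbols tested. Some of these directions rest on TMM scaling. Ier3 (2.70), Klf6 (0.98), Ier2 (0.75), Klf4 (-2.04) and Klf10 (-0.83) kept direction and call with library totals. With library totals alone, the median of all symbols moved to -0.28, calls went from 48.6% to 76.2% lower, and Klf2 (-0.07) and Egr2 (-0.22) turned negative, Egr2 past the threshold.

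Ier3, at chr17:35821713-35822911 of mm10, encodes a stress-induced protein that acts on cell survival and is a known NF-κB target. Its level was 3.80, 3.70 and 4.06 CPM in the Veh libraries and 32.4, 29.1 and 29.8 CPM in the LPS libraries. Every LPS library lay far above every Veh library. The log2 fold change was 2.98 (standard error 0.10, adjusted p = 1.1e-13 from edgeR with Benjamini-Hochberg adjustment), a fold of 7.89 with a 95% interval from 6.83 to 9.12. Ier2, at chr8:84661331-84662852, encodes a nuclear protein induced by growth factors. Veh libraries held 38.7, 32.7 and 37.5 CPM of Ier2, and LPS libraries 78.5, 76.7 and 67.6 CPM. The groups were apart, with the lowest LPS library well above the highest Veh library, and the log2 fold change was 1.03 (standard error 0.07, adjusted p = 1.9e-09 from edgeR with Benjamini-Hochberg adjustment). Ier5, at chr1:155096367-155099636, encodes a regulator of the heat shock factor HSF1. It was abundant before stimulation, at 307, 308 and 312 CPM in Veh, and stood at 377, 399 and 364 CPM in LPS. This rise of 0.30 on the log2 scale (standard error 0.04, adjusted p = 1.4e-05 from edgeR with Benjamini-Hochberg adjustment) was apart in all libraries but small, and with library totals it was 0.02 with an adjusted p of 0.73 from the same edgeR test.

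Klf6, at chr13:5861489-5870393, encodes a factor known to promote inflammatory gene expression in macrophages. It was at 616, 621 and 617 CPM in Veh and at 1465, 1495 and 1479 CPM in LPS. The libraries within each group were close together and the groups far apart. Klf6 rose by 1.26 on the log2 scale (standard error 0.04, adjusted p = 2.8e-14 from edgeR with Benjamini-Hochberg adjustment), a fold of 2.40 with a 95% interval from 2.27 to 2.54. Klf4, at chr4:55527137-55532475, is a factor linked to alternative activation of macrophages. It went the other way, from 13.9, 15.7 and 13.5 CPM in Veh to 3.57, 4.08 and 5.02 CPM in LPS. No LPS library came near a Veh library. The log2 fold change of Klf4 was -1.75 [-2.03, -1.48] (95% interval, adjusted p = 5.7e-09 from edgeR with Benjamini-Hochberg adjustment), on 45, 56 and 65 reads in the LPS libraries. Klf10, a TGF-β-inducible factor with its reads at chr15:38294406-38300711 but for 2, had 18.7, 18.1 and 18.7 CPM in Veh and 15.4, 11.2 and 11.5 CPM in LPS. It was lower in all LPS libraries, which spread more than those of Veh, at a log2 ratio of -0.54 (standard error 0.11, adjusted p = 0.00032 from edgeR with Benjamini-Hochberg adjustment).

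Klf2, at chr8:72319062-72321654, is known for restraining inflammatory activation of myeloid and endothelial cells. Its Veh libraries were at 39.7, 43.2 and 42.9 CPM and its LPS libraries at 51.0, 50.2 and 43.8 CPM. The lowest LPS library lay just above the highest Veh library. The log2 fold change was 0.21 (standard error 0.07, adjusted p = 0.011 from edgeR with Benjamini-Hochberg adjustment). The call was lost without LPS replicate 1 (adjusted p = 0.062 from edgeR with Benjamini-Hochberg adjustment), LPS replicate 2 (0.053) or Veh replicate 1 (0.064), and the direction turned with library totals.

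Egr1, on chromosome 18, encodes a factor that is a classical target of the ERK kinase and serum response factor. It was scarce in these cells, with 40 to 57 reads in each LPS or Veh library. Its levels were 3.05, 2.65 and 2.43 CPM in Veh and 4.36, 4.08 and 4.40 CPM in LPS. The LPS libraries were all above the Veh libraries, at a log2 ratio of 0.66 (standard error 0.17, adjusted p = 0.0029 from edgeR with Benjamini-Hochberg adjustment). With library totals the adjusted p was 0.056 from the same edgeR test. Egr2, at chr10:67537869-67542188, encodes a factor of macrophage differentiation. Unlike Egr1 it was plentiful, at 204, 206 and 204 CPM in Veh and 213, 222 and 206 CPM in LPS. The groups overlapped, and the log2 fold change was 0.06 with a 95% interval from -0.03 to 0.16 (adjusted p = 0.20 from edgeR with Benjamini-Hochberg adjustment).

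The comparison of T0+LPS with LPS asks what pretreatment with the LXR agonist changed in stimulated cells. Ier2 fell, and no other member was called. Of 9 members tested, 1 was called lower and 0 higher, against 1.83% called lower and 1.35% called higher of 9348 symbols. At an unadjusted p under 0.05, edgeR had 4 members lower and 0 higher, against 7.43% lower and 6.46% higher of all symbols. DESeq2 called 2 lower and 0 higher, and limma-voom 1 lower and 0 higher. The libraries of the groups did not overlap for 4 members (Egr1, Ier2, Ier5 and Klf6), all lower in T0+LPS, against 19.1% of all symbols. The mean was lower in T0+LPS for 8 of the 9 members, and the median log2 fold change was -0.14 over the members and 0.00 over all symbols. The LPS libraries enter this comparison and that with Veh, so the values of the 2 comparisons are not independent.

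Ier2 stood at 56.4, 51.1 and 60.5 CPM in the T0+LPS libraries, where the LPS libraries had 78.5, 76.7 and 67.6 CPM and the highest Veh library 38.7 CPM. T0+LPS libraries thus lay between the other groups, below every LPS library and above every Veh library. Against LPS, Ier2 fell by 24.6%, or -0.41 on the log2 scale (standard error 0.07, 95% interval from -0.56 to -0.25, adjusted p = 0.0042 from edgeR with Benjamini-Hochberg adjustment). Without each library in turn the value ran from -0.47 to -0.34, and the call was kept in all 6 fits. Klf2 was at 37.0, 36.4 and 43.8 CPM in T0+LPS. LPS replicate 3 was also at 43.8 CPM, and only these libraries overlapped. The log2 fold change of Klf2 was -0.31 (standard error 0.08, adjusted p = 0.054 from edgeR with Benjamini-Hochberg adjustment), close to the threshold. It passed without T0+LPS replicate 3 (adjusted p = 0.019 from edgeR with Benjamini-Hochberg adjustment) or LPS replicate 3 (0.012). The other fits without 1 library did not pass, with an adjusted p of up to 0.27 from the same edgeR test. Klf2 also passed in 5 of the 9 other settings, in which the adjusted p ranged from 0.0021 to 0.061.

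For Egr1 the T0+LPS libraries were at 3.35, 2.86 and 3.33 CPM. They lay below the LPS libraries and reached into the range of Veh. The log2 fold change against LPS was -0.43 with a wide 95% interval, from -0.79 to -0.06 (adjusted p = 0.26 from edgeR with Benjamini-Hochberg adjustment). Ier5 had 342, 355 and 346 CPM in T0+LPS, apart from both other groups and between them. That position rests on TMM scaling, since library totals gave Ier5 means of 352 CPM in Veh, 356 CPM in LPS and 325 CPM in T0+LPS. Its log2 ratio of -0.13 did not pass (standard error 0.05, adjusted p = 0.21 from edgeR with Benjamini-Hochberg adjustment). Klf6, at 1448, 1447 and 1424 CPM, was below each LPS library by a small margin, and the log2 ratio was -0.04 with a 95% interval from -0.12 to 0.05.

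Ier3 was at 29.5, 31.1 and 30.7 CPM in T0+LPS, within the range of the LPS libraries. Its log2 fold change against LPS was 0.00 with a 95% interval from -0.15 to 0.15, so the member that rose most with LPS was measured to within that interval. The T0+LPS libraries of Egr2 held 221, 204 and 215 CPM, also overlapping LPS, and the log2 ratio was -0.00 with a 95% interval from -0.11 to 0.10. Klf4 (4.80, 3.20 and 3.54 CPM) and Klf10 (9.82, 9.82 and 13.1 CPM) overlapped LPS as well. Their log2 fold changes were -0.14 and -0.21, with 95% intervals from -0.57 to 0.28 and from -0.52 to 0.09. Without LPS replicate 1 the value of Klf10 was -0.06, and without T0+LPS replicate 3 it was -0.36. Klf4 was at 0.00 without LPS replicate 3 and at -0.32 without T0+LPS replicate 1. These intervals are wider than those of the abundant members.

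**Figure D2:**
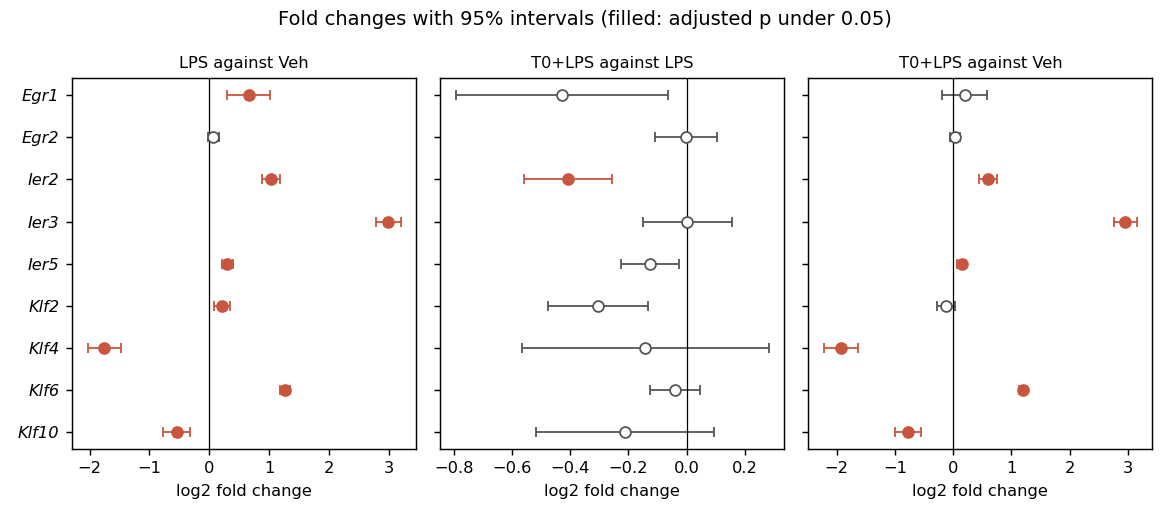
Log2 fold changes of the 9 members tested in LPS against Veh, T0+LPS against LPS and T0+LPS against Veh, with 95% intervals from edgeR. The axes differ between panels, and filled points have an adjusted p under 0.05. In the middle panel Ier2 is filled, at -0.41. With library totals Egr2 and Klf2 turn negative in the left panel, and Egr1, Egr2 and Ier5 in the right panel.

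T0+LPS was also compared with Veh, to ask whether members of pretreated and stimulated cells still stood apart from resting ones. Both sets of libraries are shared with the comparisons above. Of the 9 members, 4 were called higher (Ier2, Ier3, Ier5 and Klf6) and 2 lower (Klf4 and Klf10), where 32.4% of 9636 symbols were called higher and 32.9% lower. The libraries did not overlap for these 6 members, against 69.4% of all symbols. The median log2 fold change was 0.15 over the members and -0.03 over all symbols. For Ier3 the log2 fold change was 2.96 in T0+LPS and 2.98 in LPS, each against Veh. For Klf6 these values were 1.20 and 1.26, and for Klf4 -1.92 and -1.75. Ier2 had 0.60 in T0+LPS (adjusted p = 1.9e-06 from edgeR with Benjamini-Hochberg adjustment) and 1.03 in LPS, and Klf10 had -0.78 and -0.54. Ier5 had 0.15 against Veh (adjusted p = 0.0012 from edgeR with Benjamini-Hochberg adjustment), but -0.11 with library totals, where it was called lower (adjusted p = 0.0065 from the same test in edgeR). Egr1 (0.20), Egr2 (0.04) and Klf2 (-0.12) were not called. With library totals Egr1 turned to -0.06 and Egr2 to -0.23, past the threshold, and Klf2 was called at -0.38, as it was without T0+LPS replicate 3 (-0.20, adjusted p = 0.016 from edgeR with Benjamini-Hochberg adjustment).

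The members are part of larger families. The count table held 17 KLF symbols, 16 of them with reads, and 12 were tested in LPS against Veh. Klf6 alone made up 51.7% ± 0.306 (SD, n = 3) of the summed CPM per kilobase of the 17 genes in Veh, 64.3% ± 0.944 in LPS and 66.6% ± 1.25 in T0+LPS. In Veh the next largest shares were those of Klf9 (11.7%) and Klf13 (11.2%), ahead of Klf2 (8.14%). In LPS they were Klf3 (11.5%) and Klf7 (7.15%), and Klf9 was at 2.76%. The share of Klf2 was 4.88% in LPS and 4.20% in T0+LPS, and that of Klf4 went from 1.66% in Veh to 0.254% in LPS. A share within the family does not depend on library scaling.

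**Figure D3:**
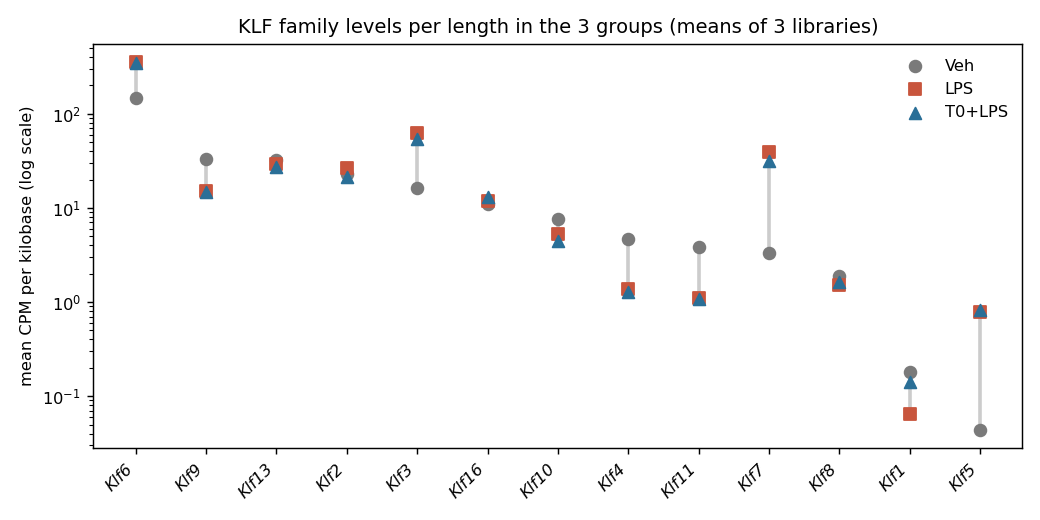
Mean CPM per kilobase of counted sequence for KLF genes with at least 0.1 in some group, on a log axis, ordered by Veh. Each symbol is the mean of 3 libraries. Klf6 was highest in all 3 groups, Klf3 and Klf7 were higher in the LPS-treated groups than in Veh, and Klf4, Klf9 and Klf11 were lower.

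Of 15 other EGR, KLF and IER family members, 9 were tested. In LPS against Veh, 3 were called higher and 5 lower, against 32.9% and 31.2% of all symbols. The median log2 fold change of the 9 was -0.12. Klf7 had 4.70, 4.03 and 4.69 CPM in Veh and 52.4, 47.8 and 56.4 CPM in LPS, or 3.54 higher on the log2 scale (adjusted p = 8.7e-15 from edgeR with Benjamini-Hochberg adjustment). Ier5l, a relative of Ier2 and Ier5, fell from 29.7, 33.8 and 30.6 CPM to 2.70, 1.53 and 1.47 CPM, or -4.05 on the log2 scale (adjusted p = 3.8e-13 from edgeR with Benjamini-Hochberg adjustment). It thus differed in direction from Ier2 and Ier5. Klf11 (-1.80) and Klf9 (-1.14) fell with Klf4 and Klf10. Egr4, the remaining EGR gene, had at most 2 reads in any group and was not tested.

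With T0 before LPS, 1 of these 9 was called lower and 0 higher, against 1.83% and 1.35% of all symbols. At an unadjusted p under 0.05, edgeR had 2 of the list lower and 0 higher, against 7.43% lower and 6.46% higher of all symbols. DESeq2 called 2 lower and 0 higher, and limma-voom 1 lower and 0 higher. Klf3, a repressor, was at 149, 139 and 150 CPM in LPS and at 118, 127 and 126 CPM in T0+LPS, where all libraries were lower. Its log2 fold change was -0.23 (standard error 0.05, adjusted p = 0.020 from edgeR with Benjamini-Hochberg adjustment). The Klf3 call was lost without T0+LPS replicate 1 (adjusted p = 0.10 from edgeR with Benjamini-Hochberg adjustment), 2 (0.051) or 3 (0.055) or LPS replicate 1 (0.13). Klf7 was also lower in every T0+LPS library, at a log2 ratio of -0.30 (adjusted p = 0.059 from edgeR with Benjamini-Hochberg adjustment). It passed without T0+LPS replicate 2 (adjusted p = 0.044 from edgeR with Benjamini-Hochberg adjustment) or LPS replicate 2 (0.029). The other fits without 1 library did not pass, with an adjusted p of up to 0.24 from the same edgeR test. Klf7 also passed in 4 of the 9 other settings, in which its adjusted p ranged from 0.0016 to 0.065. Against Veh, 4 of the 9 were called higher and 4 lower in T0+LPS, where all symbols had 32.4% higher and 32.9% lower.

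Nab1 and Nab2 encode corepressors that bind EGR proteins. In LPS against Veh, Nab1 rose from 74.7, 79.1 and 78.1 CPM to 161, 171 and 189 CPM (log2 fold change 1.17, adjusted p = 2.7e-11 from edgeR with Benjamini-Hochberg adjustment). Nab2, measured on 192 bases of 2 rows, fell by 0.52 on the log2 scale. Neither was called in T0+LPS against LPS (log2 fold changes 0.14 and 0.01). At an unadjusted p under 0.05, edgeR had 1 of them higher and 0 lower, against 6.46% higher and 7.43% lower of all symbols. DESeq2 and limma-voom called 0. Without LPS replicate 3, Nab1 was called higher, with an adjusted p of 0.033 from edgeR with Benjamini-Hochberg adjustment. In the other fits without 1 library Nab1 was not called, and its adjusted p reached 0.76 in the same edgeR test.

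Of 24 kinases and factors upstream of immediate-early promoters, 19 were tested in LPS against Veh. Of these, 12 were called higher and 3 lower, against 32.9% and 31.2% of all symbols, and the median log2 fold change was 0.24. Mapkapk2, a kinase downstream of p38, was at 333, 341 and 343 CPM in Veh and 1825, 1800 and 1788 CPM in LPS, a log2 fold change of 2.42. Rps6ka4 (1.22) and Rps6ka5 (1.19), the kinases MSK2 and MSK1, and Map3k8 (1.21), the kinase TPL2 upstream of ERK, also rose. With T0+LPS set against LPS, 0 of 18 genes tested were called in either direction in edgeR. All symbols had 1.35% called higher and 1.83% lower there. At an unadjusted p under 0.05, edgeR had 1 higher and 1 lower, against 6.46% higher and 7.43% lower of all symbols. DESeq2 and limma-voom called 0. The median was -0.03. Against Veh, T0+LPS had 11 of 19 called higher and 5 lower, beside 32.4% and 32.9% of all symbols.

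Of 40 other immediate-early genes, 32 were tested. In LPS against Veh, 25 were called higher and 6 lower, against 32.9% and 31.2% of all symbols. The median log2 fold change of the 32 was 1.34. Maff (5.93), Tnfaip3 (5.79, on 431 bases) and Nfkbia (4.95) rose most among called genes with a mean of at least 5 CPM. Fos fell by 4.38 on the log2 scale, from 81.8, 75.6 and 71.4 CPM in Veh to 3.80, 3.93 and 3.24 CPM in LPS. Fos thus stood with Klf4 and Ier5l, high in each Veh library and low in each LPS library. T0+LPS against Veh had 25 called higher and 6 lower, against 32.4% and 32.9% of all symbols, and the median of the list was 1.19.

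Comparing T0+LPS with LPS, 9 of the 32 were called lower and 1 higher, beside 1 of 9 members lower. Of all symbols tested, 1.83% were called lower and 1.35% higher. The median log2 fold change of the 32 was -0.14, the same as over the members to 2 decimals. Maff had -0.15 and Nfkbia -0.14 (adjusted p = 0.26 and 0.17 from edgeR with Benjamini-Hochberg adjustment). Of 6 fits without 1 library, these genes passed in that without LPS replicate 3 (0.041 and 0.029), and in the others reached 0.59 and 0.52. Tnfaip3 had -0.34 (adjusted p = 0.070 from edgeR with Benjamini-Hochberg adjustment), lower in all T0+LPS libraries, and passed without a filter (0.0078) and with the replicate block (0.030). The remaining settings did not pass, with an adjusted p of up to 0.11. Nor did any fit without 1 library, at adjusted p from 0.054 to 0.28 in edgeR. The libraries did not overlap for any of the 10 called genes, against 19.1% of all symbols, but the calls came from these same libraries. Csrnp1 (-0.62), Rhob (-0.50), Dusp2 (-0.45), Junb (-0.31) and Gadd45b (-0.29) kept their calls in all fits without 1 library. Junb had 726, 714 and 713 CPM in LPS and 559, 578 and 602 CPM in T0+LPS. Cdkn1a had -1.08 but was measured on 206 bases. Fosl2 (-0.29), Zfp36 (-0.25) and Trib1 (-0.26) lost their calls without LPS replicate 1, with adjusted p-values of 0.098, 0.069 and 0.10 from edgeR with Benjamini-Hochberg adjustment. Without T0+LPS replicate 1 they were also lost (0.054, 0.080 and 0.083), as were Zfp36 (0.11) and Trib1 (0.084) without T0+LPS replicate 2 and Trib1 (0.050) without T0+LPS replicate 3.

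Atf3 was the gene called higher, from 230, 238 and 210 CPM in LPS to 386, 339 and 348 CPM in T0+LPS (log2 fold change 0.66, adjusted p = 5.3e-06 from edgeR with Benjamini-Hochberg adjustment). Its Veh libraries, at 1034, 1008 and 1018 CPM, were higher still. Ier2 and Atf3 thus had T0+LPS levels between Veh and LPS, Ier2 from a rise and Atf3 from a fall in LPS. This was not particular to them, since the 9 genes of the list called lower also had T0+LPS means between Veh and LPS. The LPS libraries enter both differences, so such a position is not independent of the calls.

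**Figure D4:**
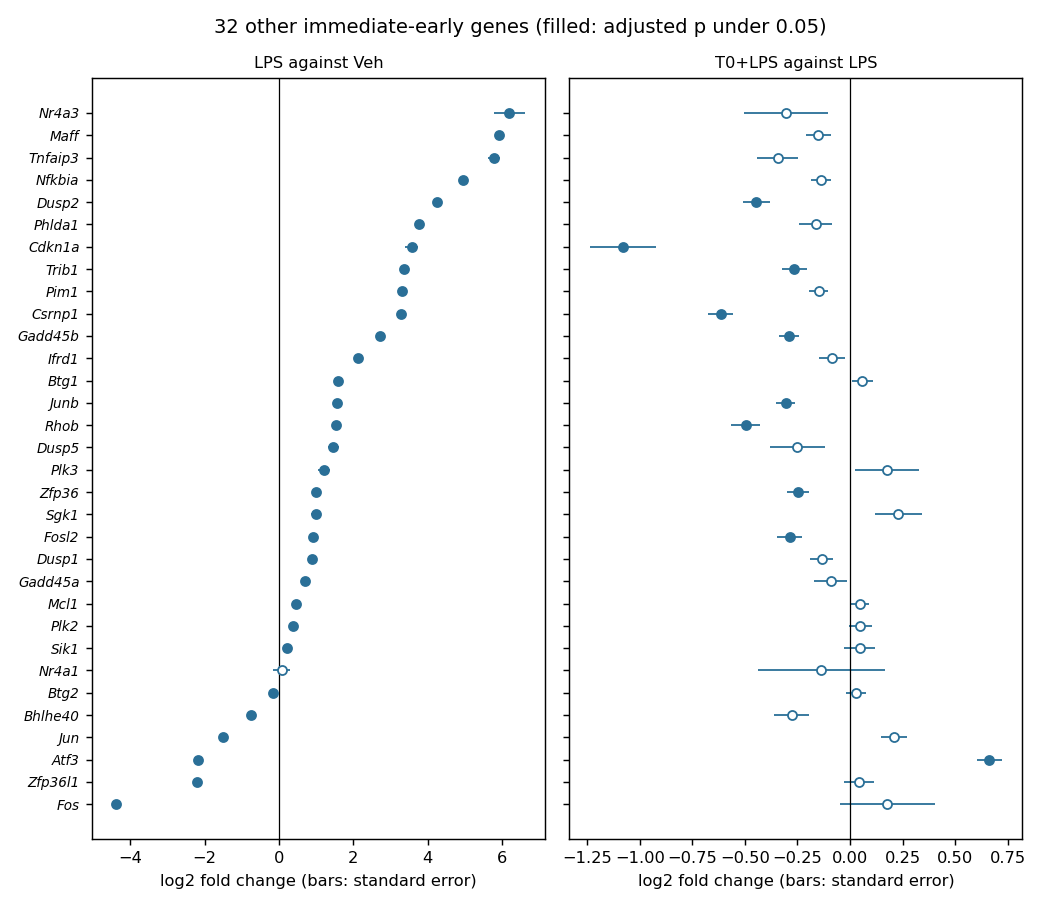
Log2 fold changes of 32 other immediate-early genes in LPS against Veh (left) and T0+LPS against LPS (right), ordered by the left panel, with standard errors. The axes differ between panels, the LPS libraries enter both, and filled points have an adjusted p under 0.05. In the right panel 9 genes are filled below 0 and Atf3 above.

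Genes whose log2(CPM + 1) followed a member most closely over the 9 libraries were named for 1 gene of each family. Over so few libraries in 3 groups, Pearson's r mainly reflects the group means. For Egr1, Cav2 (r = 0.96) and Stac2 (0.95) were among the 3 closest of 9232 genes. Both had their highest mean in LPS, as Egr1 did. Klf2 was followed most closely by Arfip1 (0.95), Itgb2 (0.95) and Flt1 (0.93). Itgb2 had mean levels of 2367 CPM in Veh, 2628 CPM in LPS and 2319 CPM in T0+LPS, where Klf2 had 41.9, 48.3 and 39.1 CPM. For Ier3 the closest were Igsf6, Snx18 and Clec4e, each with r of at least 0.999.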

How the data were processed

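RNA-seq counts from 9 BMDM libraries (Veh, LPS and T0+LPS, 3 each) were analysed. The authors selected polyadenylated RNA, trimmed reads with cutadapt, aligned them with HISAT2 to mm10 and counted them with featureCounts (Subread) on RefSeq transcripts, and the deposited values are whole read counts with no normalization. The strand setting is not stated. The deposited length column gives other information, the exon bases of each row. The counts leave out reads that fall where rows overlap, as tested on their positions, so CPM per kilobase uses unshared bases. The authors' own comparison tables (p-values, RPKM ratios and gene names) were not used.

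Rows were summed by symbol and tested with edgeR 4.0.16 in R 4.3.3 (quasi-likelihood, TMM, filterByExpr, Benjamini-Hochberg over all symbols, threshold 0.05) on the 6 libraries compared. The tests were tested on simulated data. Alternatives were DESeq2 1.42.0, limma-voom (limma 3.58.1), DESeq2's size factors, library totals, no filter, at least 10 counts in 3 libraries, all 9 libraries in 1 fit, a replicate block, rows not summed, and each library left out in turn. Levels and figures used Python 3.11.15 with pandas 2.3.3. Intervals of 95% come from edgeR, and the floor of 3 counts covers counting error only.

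The members and lists were chosen with earlier results of these data known. Named genes are all members and, of each list, every gene called in T0+LPS against LPS and the 4 largest other changes called in LPS against Veh with a mean of at least 5 CPM. For Egr1, Klf2 and Ier3, set in the design, genes among the 3 with the highest Pearson correlation are named. Egr4, Nab2, Klf13 and the marker genes were named after their values were seen. Lists cover other family members, EGR corepressors, upstream kinases and factors, other immediate-early genes, heat shock genes and cell type markers. Of the 9 sample columns, 0 were left unused.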

Additional observations from a re-analysis of the deposited data

How the results depend on the processing

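In LPS against Veh, library totals in place of TMM gave 1694 genes higher and 5411 lower, with 3 members higher. Log2 fold changes reversed for Egr2 (-0.22), Klf2 (-0.0735) and Dnajb1 (-0.144). In T0+LPS against Veh, totals gave 1659 higher and 5523 lower, with 5 members lower, and Egr1 (-0.0605), Egr2 (-0.23), Ier5 (-0.11) and Dnajb1 (-0.0852) reversed. Totals carry no factor for composition, while the TMM factors ran from 1.136 to 1.144 in Veh libraries and no higher than 0.948 elsewhere. CPM without TMM was, in Veh, 3.08 for Egr1, 233 for Egr2, 41.4 for Ier2, 4.39 for Ier3, 352 for Ier5, 47.8 for Klf2, 16.3 for Klf4, 704 for Klf6 and 21.1 for Klf10. In LPS it was 4.02 for Egr1, 201 for Egr2, 28.6 for Ier3, 356 for Ier5 and 1388 for Klf6. In T0+LPS it was 199.5 for Egr2, 28.5 for Ier3, 325 for Ier5 and 1347 for Klf6.

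In T0+LPS against LPS, testing every symbol with at least 1 count gave 225 genes higher and 285 lower. There were 2 members called lower, Ier2 and Klf2, without a filter, with library totals, with DESeq2 and with all 9 libraries in 1 fit. Values near 0 reversed for Ier3 with totals (-0.0026), and for Egr2 (0.0014) and Hspa8 (0.00054) without a filter. Fits without 1 library gave 59 to 167 genes higher and 82 to 191 lower, lowest without LPS replicate 1, and 1 to 2 members lower. Without T0+LPS replicate 2 there were 78 and 94, and without T0+LPS replicate 1 there were 103 lower. Log2 fold changes in these fits that turned sign ranged from -0.0281 to 0.0318 for Egr2, -0.0305 to 0.0481 for Ier3, -0.32 to 0.00117 for Klf4, -0.13 to 0.36 for Fos, -0.0129 to 0.00948 for Hspa8 and -0.16 to 0.11 for Klf11. The cause was not tested. The Ier2 call was kept in all 9 settings and all 6 of these fits.

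The labels do not say whether replicate numbers pair the libraries, and the correlations that follow cannot exclude a shared animal or day. Correlating same-numbered libraries, after removing group means, gave 0.04, 0.02 and -0.05 in LPS against Veh, 0.05, -0.05 and -0.00 in T0+LPS against LPS, and 0.05, -0.01 and -0.02 in T0+LPS against Veh. With the replicate block in edgeR, 155 genes were higher and 230 lower in T0+LPS against LPS, with 2 members lower. The block gave 3053 and 2926 in LPS against Veh and 3078 and 3124 in T0+LPS against Veh.

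Egr1, Klf4 and Klf10 had the widest intervals of the members in each comparison, and the part of depth in this was not tested. At this depth Egr3, with no reads on its few counted bases, could not be measured.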

Other observations

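Of 6 heat shock genes, a list that can mark stress at handling, 5 were tested. In LPS against Veh, 4 were called higher and 1 lower, against 32.9% and 31.2% of all symbols. Hspa1b was at 7.97, 7.14 and 7.94 CPM in Veh and at 91.8, 98.6 and 97.8 CPM in LPS, a log2 fold change of 3.64. Hspa1a had 3.27, Hspa8 0.59, Dnajb1 0.14 and Hsph1 -0.19. The call for Dnajb1 was lost without LPS replicate 2 and without each Veh replicate (highest adjusted p = 0.16 from edgeR with Benjamini-Hochberg adjustment), with no filter (0.14), with all 9 libraries in 1 fit (0.057) and with the replicate block (0.060). DESeq2 gave Dnajb1 an adjusted p of 0.10 and called 3 of the list higher and 1 lower. With library totals Dnajb1 was called lower (-0.14, adjusted p = 0.023 from edgeR with Benjamini-Hochberg adjustment). Hspa1a and Hspa1b are nearly identical, so counts of each are uncertain. In T0+LPS against LPS, Hspa1a was called higher (log2 fold change 0.29, adjusted p = 0.042 from edgeR with Benjamini-Hochberg adjustment) and 0 were called lower. All symbols had 1.35% called higher and 1.83% lower. DESeq2, limma-voom and an unadjusted p under 0.05 in edgeR also gave 1 of the list higher and 0 lower. At that unadjusted threshold, 6.46% of all symbols were higher and 7.43% lower. The Hspa1a call was lost without T0+LPS replicate 1 (adjusted p = 0.069 from edgeR with Benjamini-Hochberg adjustment), T0+LPS replicate 2 (0.21), LPS replicate 1 (0.19) or LPS replicate 3 (0.083). In T0+LPS against Veh, 4 were called higher and 1 lower, against 32.4% and 32.9% of all symbols. There Dnajb1 lost its call without T0+LPS replicate 1 (adjusted p = 0.062 from edgeR with Benjamini-Hochberg adjustment) or Veh replicate 3 (0.070), and it turned negative with library totals, without a call. The part of handling in the members' values was not tested.

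Of 8 macrophage marker symbols, 7 had reads, and Itgam, with 3 counted bases, had 0. Their summed levels were 29120, 26860 and 27170 CPM in Veh, 32330, 33720 and 32370 CPM in LPS and 36610, 35140 and 35510 CPM in T0+LPS. The sum was led by Lyz2, and the lower levels of Fcgr1 and Mertk in LPS than in Veh do not show in it. Within this sum Cd14 was at a mean of 944 CPM in Veh, 3128 CPM in LPS and 3352 CPM in T0+LPS. Several markers of other cell types had too few counted bases for a level to be read: S100a9 (3), Cd8a (31), Klrb1c (9), Pecam1 (57), Tek (0), Hba-a1 (6), Hba-a2 (14), Hbb-bs (9) and Hbb-bt (0), all without reads. Sums over the lists therefore cover the remaining markers. No library passed 14.0 CPM in such a sum, the value of the endothelial list in Veh replicate 1, led by Kdr at a mean of 10.3 CPM. The leading genes of the other lists were Cd4 (mean 2.51 CPM) for T and NK cells, S100a8 (1.63) for neutrophils and their precursors, Xcr1 (1.39) for dendritic cells, Cd79b (1.37) for B cells, Itga2b (0.444) for erythroid cells and megakaryocytes and Col1a2 (0.0878) for fibroblasts. Some of these moved between Veh, LPS and T0+LPS: Xcr1 was at 0.248, 1.79 and 2.13 CPM, S100a8 at 0.987, 2.28 and 1.62 CPM, and Kdr at 13.3, 8.42 and 9.38 CPM. Cd3e, Pax5, Siglech and Lum had 0 reads.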
